A study of Mus musculus with 24 samples.

Results

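Chromosomes 6 and 8 were examined gene by gene and peak by peak in a female hybrid mouse embryonic stem cell line, because genes with reads from both parental alleles lay near 35% mus there and not near 50%. The chromosomes were chosen by the mus share itself, so their shares are given as a description, with no test. The members are all genes on them with 120 or more allelic reads summed over 12 RNA libraries. There were 1426 of them (689 on chromosome 6 and 737 on chromosome 8), out of 2412 genes of any depth on both chromosomes and 13350 genes at that depth in the whole series. Added to them were the H3K9ac peaks of both chromosomes in 4 peak lists. These numbered 3720 on chromosome 6 and 3565 on chromosome 8 of 51501 in KO cells at day 10, and 3034 and 2864 of 37310 in WT cells at day 10. At day 0 there were 3231 and 2868 of 37704 in KO cells, and 4655 and 4390 of 63050 in WT cells.

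The study compared G9a KO cells with the WT cells of the 16.7 Tsix +/TST line they were made from. Both lines carry the same Tsix +/TST genotype, so that allele is present in every library. G9a, encoded by Ehmt2, is the enzyme that adds mono- and dimethyl marks to lysine 9 of histone H3, and H3K9ac is the acetyl mark at the same residue of active promoters. Cells were taken undifferentiated (day 0) or 10 days after LIF, the cytokine that keeps them undifferentiated, was withdrawn (day 10, with 4 days in suspension and 6 on gelatin). There were 3 RNA libraries for each of KO day 10, WT day 10, KO day 0 and WT day 0, and 1 H3K9ac sample for each. The labels number the libraries of each group as donors 1 to 3, although all come from the same line, and do not say whether they were separate cultures or how many KO clones were used. Every p-value therefore measures only the spread between these samples, which may be technical.

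In a hybrid line each read over a base that differs between the parents can be given to the mus (laboratory mouse) or the cas (Mus castaneus) allele, and the mus share is the percentage of allelic reads on mus. A region that carries both parental copies once gives a share near 50%, and a region that carries only mus copies gives a share near 100%. With 1 mus and 2 cas copies equally active, the share would be 33.3%. Cultured mouse embryonic stem cells are known to gain whole chromosomes, chromosome 8 among the most frequent. Chromosome 6 carries Nanog, a core pluripotency factor, and 2 clusters of imprinted genes around Peg10 and Mest, and chromosome 8 carries Zfp42 (Rex1), a marker of the naive state.

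Depth was 2081129 to 30527844 reads per library, of which 37268 to 601539 were allelic on chromosome 6 and 38322 to 653738 on chromosome 8. The libraries were of 2 kinds: KO day 0 replicates 2 and 3 and WT day 0 replicate 3 had at least 21087157 reads, with 0.115 to 0.129% of reads in Rn45s, the ribosomal RNA precursor gene, and the other 9 had at most 4220140, with 14.8 to 25.1% in Rn45s. Of 10 embryonic stem cell markers all 10 had reads in every library, with a summed level of 460 to 5322 CPM (reads scaled to library size). Ehmt2 had 500, 758 and 628 scaled reads in KO and 1297, 1359 and 719 in WT at day 10, and 557, 441 and 375 in KO and 987, 1102 and 1375 in WT at day 0. The groups overlapped at day 10 and not at day 0. A pair of libraries, KO day 0 replicate 1 and WT day 10 replicate 3, held reads in receptor genes that are silent in these cells (1023 and 1038 CPM, against 29.6 to 361 elsewhere). Y-linked genes had 11.9 CPM in KO day 0 replicate 1 and 28.3 in WT day 0 replicate 1, against at most 3.05 in the other libraries, and these cells are labelled female. The 16 fibroblast genes summed to 658, 1788 and 1959 CPM in KO and 365, 1104 and 566 in WT at day 10, and to 573, 151 and 144 in KO and 1392, 223 and 161 in WT at day 0. KO day 0 replicates 2 and 3 differed little in gene counts (chi-square per gene 2.73, against 4.59 to 404 for every other pair of a group), and they were kept as separate samples since the value is above that of sampling noise.

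Genes at the steps in mus share are introduced here with the 250 bases upstream of their start, from RefSeq on the GRCm38.p6 build, because each chromosome changed from one allele state to another between neighbouring genes. Cep41, a centrosomal protein gene, opened the mus-only part of chromosome 6 (chr6:30693750-30693999, minus strand). Cmas, an enzyme gene of sialic acid activation, closed it (chr6:142756436-142756685, plus strand), and St8sia1, a sialyltransferase gene, was its next neighbour with both alleles (chr6:142964453-142964702, minus strand). Tmtc1, a glycosyltransferase gene, opened the last stretch (chr6:148444353-148444602, minus strand). Capitals mark the GC box, GGGCGG or its reverse CCGCCC, which Sp1 family factors are known to bind.
Cep41: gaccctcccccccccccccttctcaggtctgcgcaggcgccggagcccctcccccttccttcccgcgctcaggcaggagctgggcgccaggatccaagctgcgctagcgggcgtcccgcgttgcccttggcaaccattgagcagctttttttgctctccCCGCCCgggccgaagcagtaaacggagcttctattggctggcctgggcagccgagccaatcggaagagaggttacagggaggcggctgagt
Cmas: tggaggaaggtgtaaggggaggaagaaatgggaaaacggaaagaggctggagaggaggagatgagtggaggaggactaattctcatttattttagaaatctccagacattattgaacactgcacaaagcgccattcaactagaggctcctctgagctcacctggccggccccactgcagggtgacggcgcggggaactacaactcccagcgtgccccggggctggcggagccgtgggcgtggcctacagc
St8sia1: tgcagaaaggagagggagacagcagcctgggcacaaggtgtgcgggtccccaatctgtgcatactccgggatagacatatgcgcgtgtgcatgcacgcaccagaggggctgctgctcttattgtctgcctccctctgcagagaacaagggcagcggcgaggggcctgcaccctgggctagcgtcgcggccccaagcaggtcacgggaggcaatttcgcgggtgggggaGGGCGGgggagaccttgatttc
Tmtc1: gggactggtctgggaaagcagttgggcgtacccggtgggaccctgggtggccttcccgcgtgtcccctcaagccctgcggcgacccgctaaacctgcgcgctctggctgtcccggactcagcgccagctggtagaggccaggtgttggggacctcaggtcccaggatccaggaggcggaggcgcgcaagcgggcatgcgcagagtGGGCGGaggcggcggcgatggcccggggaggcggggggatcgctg
One GC box lay in each of the Cep41, St8sia1 and Tmtc1 windows and 0 in that of Cmas. Of all 32851 RefSeq promoters 32.7% held one on either strand in these 250 bases, as did 740 of 1321 promoters (56.0%) of the 1027 members matched by symbol. An H3K9ac peak lay within 1 kb of the start of Cep41 and Cmas in 3 of the 4 lists, of St8sia1 in 2 and of Tmtc1 in 4. Nfix and Gadd45gip1 are named only.

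The mus share fell into blocks with sharp edges. All coordinates of genes are mm9, as in the files. Along chromosome 6 the first 87 members, from Samd9l (position 3322257) up to the step before Cep41, called the proximal block here, had a median of 35.0%. The next 565, from Cep41 to Cmas (30603457 to 142724234), had 99.0%. The 27 from St8sia1 to 4732416N19Rik (142770061 to 148184185), the distal block, had 33.1%. The last 10, from Tmtc1 to Bicd1 (148180952 to 149511848), the tip, had 52.8%.

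Chromosome 8 had 1 step. The 419 members from Insr to Nfix (3150922 to 87324237) had a median of 35.0%, and the 318 from Gadd45gip1 to the end (87356181 to 131707632) had 99.1%. These blocks came from a segmentation of the mus shares, which also chose the chromosomes, so they are a description with no test. On the other autosomes, 6 chromosomes (2, 5, 7, 9, 11 and 13) held 50 or more genes in blocks with both alleles, and the medians of those blocks were 50.8 to 51.4% by chromosome. Mus-only blocks and steps were found there too. Chromosome 2 stepped from a block at 50.5% to 98.8% and then to 50.3%, and chromosomes 1 and 3 were each a single block at 98.9%. Such blocks and steps were thus not particular to chromosomes 6 and 8.

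**Figure D1:**
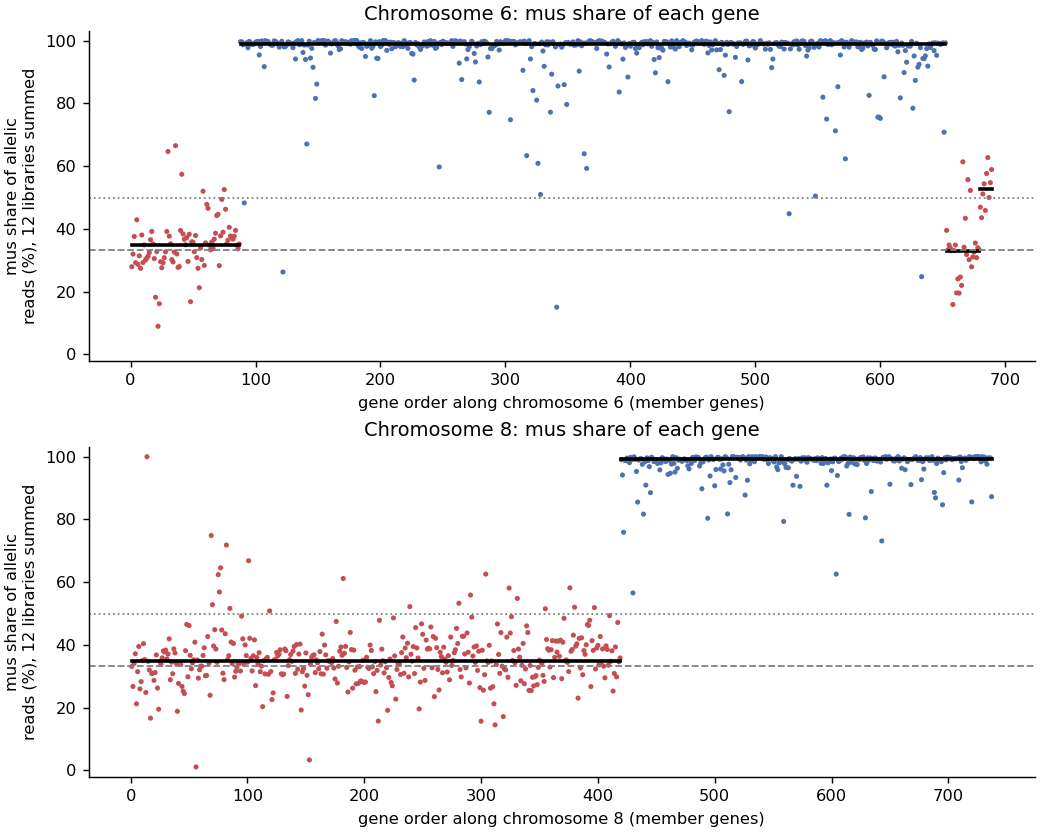
Mus share (percent of allelic reads, 12 libraries summed) of each member in gene order along chromosome 6 (top, 689 genes) and chromosome 8 (bottom, 737 genes); red points lie in blocks with both alleles, blue points in mus-only blocks, black bars are block medians, and the dashed and dotted lines mark 33.3% and 50%. The red blocks lie near the dashed line except for the 10 genes at the tip of chromosome 6, whose median was 52.8%.

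The steps were narrow. Cep41, the first gene after the proximal block of chromosome 6, had 99.7% on 860 reads. Cmas had 99.3% on 4340 reads, and St8sia1, 45.8 kb on, had 39.5% on 559. On chromosome 8, Nfix, a nuclear factor I gene, had 35.9% on 421 reads, and Gadd45gip1, 31.9 kb on, had 99.0% on 1123. The steps after Cmas and after Nfix thus each fell between adjacent members.

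The last step on chromosome 6 was of another kind, from about 33% to about 53% with both alleles present on either side. It was found at segmentation penalties of 60 to 120 and not at 150. At 150, St8sia1 to Bicd1 formed 1 block of 37 members with a median of 34.2%. The other steps were the same at every penalty tried. 4732416N19Rik, a noncoding RNA gene, had 33.4% on 443 reads, and Tmtc1, which overlaps it, had 46.9% on 978. Use of strand in the counting is not given in the sources used here, so reads in the overlap of that pair cannot be told apart. All 10 tip genes, Tmtc1 to Bicd1, were above 41.7%, the midpoint between 33.3% and 50%. In the distal block 23 of 27 genes were below that midpoint. The exceptions were Itpr2 (61.4%), an endoplasmic calcium channel gene, Med21 (55.7%), a Mediator subunit gene, Arntl2 (52.3%), a clock factor gene, and Fgfr1op2 (43.4%), and genes at 27.9 to 34.2% lay between them.

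**Figure D2:**
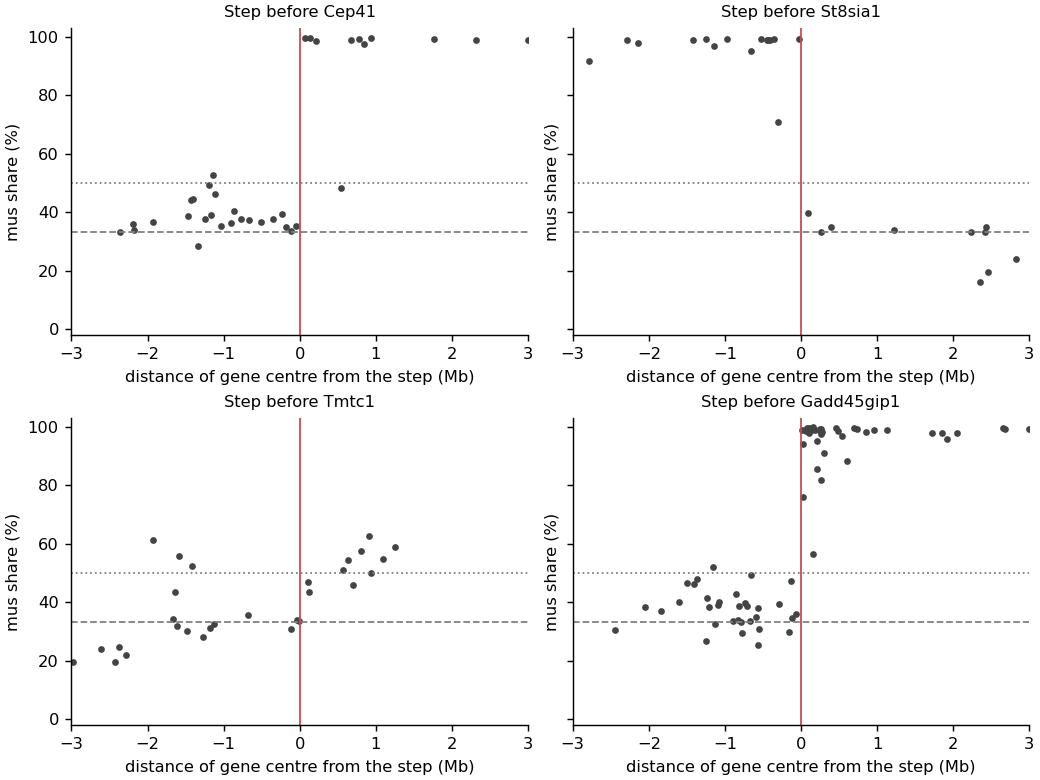
Mus share (percent) of each member gene against the distance of its centre from a step (Mb), for the 3 steps of chromosome 6 and the step of chromosome 8; the red line is the step, and the dashed and dotted lines mark 33.3% and 50%. The change is complete between neighbouring genes at the steps before Cep41, St8sia1 and Gadd45gip1, and smaller, from medians of 33.1 to 52.8%, at the step before Tmtc1.

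By 10 Mb bin the pattern was even within each block. On chromosome 6 the medians of bins 1 to 3 were 30.7, 35.3 and 36.6% (27, 21 and 34 genes). Bins 4 to 14 had 98.0 to 99.4%, and bin 15, which spans the distal block and the tip, had 45.9%. On chromosome 8 the medians of bins 1 to 8 were 32.7 to 35.9% (13 to 118 genes). Bin 9, which holds the step, had 46.4%, and bins 10 to 14 had 98.9 to 99.6%. No bin of the proximal block of chromosome 6 or of the first 8 of chromosome 8 had a median above 36.6%.

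The spread around those medians was like that of other blocks. In the chromosome 6 proximal block 75 of 87 genes (86.2%) lay below 41.7%, and in the chromosome 8 block 352 of 419 (84.0%) did, against 344 of 3511 (9.80%) in the blocks of the other autosomes. The middle 50% of genes spanned 30.2 to 38.0% in the chromosome 6 proximal block and 31.0 to 39.1% on chromosome 8, against 47.0 to 55.6% on the other autosomes. With the small mus bias of the other autosomes (51.1%), 1 mus and 2 cas copies of equal activity would give 34.3%, and 2 mus and 1 cas would give 67.6%.

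Split by allele, the difference lay on the cas side for chromosome 8. Its genes with both alleles had a median of 20.9 mus and 40.6 cas reads per kb of gene over the 12 libraries, against 22.8 and 22.1 on the other autosomes. The distal block of chromosome 6 had 19.2 mus and 41.4 cas reads per kb. The proximal block had 10.3 mus and 14.7 cas, and the tip 14.8 mus and 11.8 cas. Levels per kb also depend on which genes a block holds, and that was not tested.

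Single genes are given first by depth: the 8 members of each chromosome with the most allelic reads among those at 10 to 90% mus. That limit keeps genes near 100% out of the list. Peg10, an imprinted retrotransposon-derived gene needed in the placenta, had 27.5% mus on 48572 reads, with 18.9 to 31.7% over the 12 libraries (median 26.8%). Bcat1, which starts branched-chain amino acid breakdown, had 33.0%, Slc25a13, the mitochondrial aspartate-glutamate carrier, 32.4%, and Asns, asparagine synthetase, 30.6%. Snd1, an RNA-binding nuclease, had 36.7%, Calu, a calcium-binding protein of the endoplasmic reticulum, 37.8%, and Tm7sf3 31.8%. The remaining gene, Hnrnpa2b1, an RNA-binding protein gene of the mus-only block, had 82.5%. Each of the other 7 genes was below 50% in all 12 libraries, the highest single value being 45.2% for Bcat1.

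Of the chromosome 8 genes by the same rule and limit, Zfp42 had 39.5% mus on 39887 reads (32.5 to 48.2% over libraries). Fat1, an atypical cadherin gene, had 32.8%, Dlc1, a GTPase activator gene, 30.7%, and Lamp1, a lysosomal membrane protein, 36.7%. Mcm5, a subunit of the replicative helicase, had 41.4%, Rbpms, an RNA-binding protein, 30.3%, and Eif4ebp1, a repressor of translation, 33.4%. Calr, an endoplasmic chaperone gene just beyond Gadd45gip1, had 75.9% on 18793 reads inside the mus-only block. The 7 genes with a share below 50% were below 50% in all 12 libraries.

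A minority stood apart. In the chromosome 6 blocks Mios, of the nutrient-sensing GATOR complex, had 8.96% mus on 4173 reads, Rpa3, a single-stranded DNA binding subunit, 16.2% on 1138, and Lrmp 15.9% on 1074. Atp4b, a gastric proton pump subunit, had 1.12% on 891 reads, Mboat4, the ghrelin acyltransferase, 3.35% on 1343, and Aga, a lysosomal amidase, 15.7% on 2366. Rprl3, an RNase P RNA-like gene, had 99.98% on 112884 reads inside the chromosome 8 block, and the pooled share of that block, which includes it, was 41.0%. Of the 173 chromosome 6 genes at 10 to 90% mus, 50 lay in the mus-only block, among them Ldhb (70.8%), Gapdh (71.3%) and Tpi1 (50.5%). Gapdh, Tpi1 and Rprl3 are known to have near-identical copies elsewhere, and how reads with several positions were placed is not given in the sources used here, so their shares are uncertain.

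At the read threshold, the members just inside were Clec2l (122 reads, 100%) and Gata2 (124 reads, 98.4%) on chromosome 6 and Star (120 reads, 50.8%) and Gdf15 (121 reads, 39.7%) on chromosome 8. Just outside were 1700060C16Rik (119 reads, 25.2%) and Wnt2 (118 reads, 29.7%), and Dand5 (118 reads, 97.5%) and Angpt2 (117 reads, 34.2%). Both kinds included genes near 100% and genes well below 50%.

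The imprinted genes of the proximal block of chromosome 6 were all below 50%. In the cluster around Peg10, Sgce, a sarcoglycan gene, had 31.4% mus, Ppp1r9a, a phosphatase regulator, 38.1%, Pon2 and Pon3, paraoxonase genes, 34.9 and 29.3%, Asb4 30.1%, Calcr, the calcitonin receptor gene, 37.6%, and Casd1 28.7%. The 8 members there thus ranged from 27.5% (Peg10) to 38.1% (Ppp1r9a), with 141 (Calcr) to 48572 reads (Peg10). Of these 8, Peg10, Casd1, Pon3 and Asb4 lay below 30.2%, the lower quartile of the block. Mest, Copg2 and Herc3 lay in the mus-only block and had 99.6, 98.7 and 99.7%. Over all libraries the chromosome 6 median was 40.2% without the imprinted genes and 40.0% with them.

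The uneven share was present in every library of both lines. In the chromosome 8 block the median share over genes was 33.3, 34.4 and 32.1% in KO and 34.9, 33.3 and 34.8% in WT at day 10, and 35.8, 35.5 and 35.4% in the KO and 37.0, 34.9 and 34.7% in WT at day 0. In the proximal block of chromosome 6 it was 33.3, 31.9 and 34.2% in KO and 33.3, 35.7 and 35.5% in WT at day 10, and 35.4, 33.8 and 33.3% in KO and 34.6, 33.3 and 34.2% in WT at day 0. The distal block had 31.4 to 41.2% over the 12 libraries and the tip 46.5 to 55.9%. The 6 other autosomes with 50 or more such genes, pooled, had 50 to 53.6% over the 12 libraries. The highest chromosome 8 value and the highest pooled value of those autosomes, 53.6%, belonged to the same library, WT day 0 replicate 1, which also had the most Y-linked and, at day 0, fibroblast reads; their part in its share was not tested.

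**Figure D3:**
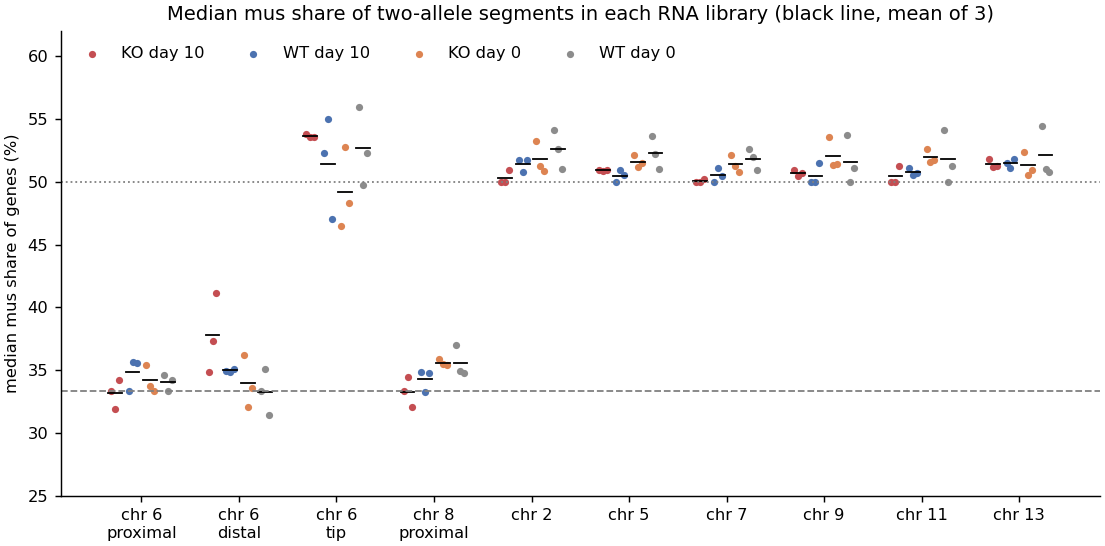
Median mus share over genes (percent) in each of 12 RNA libraries, for 3 blocks of chromosome 6 and the block of chromosome 8 and for the blocks of 6 other autosomes; colours are KO and WT at day 10 and day 0, points are libraries, and black lines are means of 3. The proximal blocks of both chromosomes lie at 31.9 to 37.0% in all 12 libraries, and the 6 other autosomes, plotted singly, at 50 to 54.5%.

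Whether the share differed between KO and WT or between days was tested over libraries, a comparison the choice of chromosomes did not use. The measure was the median over all genes at 10 to 90% mus (173 on chromosome 6, 436 on chromosome 8), whose median over the 12 libraries was 40.0% for chromosome 6 and 35.4% for chromosome 8. With 3 libraries against 3, an exact 2-sided permutation test cannot give less than 0.1. KO had 42.0 ± 1.81% and WT 39.9 ± 1.39% on chromosome 6 at day 10 (SD, n = 3 each, exact permutation p = 0.2), and 38.7 ± 0.683% and 39.9 ± 1.63% at day 0 (exact permutation p = 0.4). On chromosome 8, KO had 34.01 ± 1.43% and WT 34.6 ± 1.14% at day 10 (SD, n = 3 each, exact permutation p = 0.6), and 36.0 ± 0.281% and 36.2 ± 1.45% at day 0 (exact permutation p = 1). KO and WT libraries overlapped in all 4 comparisons.

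Between days, the KO libraries did not overlap. On chromosome 6 day 10 was 3.34 points above day 0, and on chromosome 8 it was 2.03 points below it (exact permutation p = 0.1 for each, the smallest possible, and 0.4 after adjustment over the 8 tests). The pooled blocks of the 6 other autosomes with 50 or more genes also fell without overlap in KO. They went from 51.7 ± 0.814% at day 0 to 50.5 ± 0.481% at day 10 (SD, n = 3 each, not tested). A fall in KO was thus not particular to chromosome 8. Over the 124 genes inside the chromosome 6 blocks alone, KO had 35.3 ± 1.25% at day 10 and 34.8 ± 1.303% at day 0. The 3.34 points were thus found over a set that includes 50 genes of the mus-only block, and not over those 124 genes. The blocks differed in KO. The proximal block (87 genes) had 33.2 ± 1.17% at day 10 and 34.2 ± 1.10% at day 0. The distal block (27 genes) had 37.8 ± 3.20% and 33.9 ± 2.11%, and the tip (10 genes) 53.7 ± 0.154% and 49.2 ± 3.22% (SD, n = 3 each, not tested). In WT, day 10 and day 0 overlapped on both chromosomes (differences of -0.02 and -1.56 points, exact permutation p = 1 and 0.3). The KO change minus the WT change was 3.36 points on chromosome 6 (exact permutation of 400 regroupings, p = 0.055, adjusted p = 0.18 over 4 measures) and -0.48 points on chromosome 8 (p = 0.74, adjusted p = 0.74, exact permutation).

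Gene by gene, the ratio of mus to cas reads was compared between groups with edgeR over all genes with 10 or more allelic reads in each library compared. At day 10, 1 of 882 members, Cntnap2, passed between KO and WT, beside 0.0913% of the 7666 genes tested. At day 0, 0 of 1018 passed beside 0.0% of 8653, with 37 members at an unadjusted p under 0.05. In KO, 6 of 890 members passed between day 10 and day 0, beside 1.26% of 7791 genes, and in WT 0 of 908 passed beside 0.0256% of 7802, with 38 members at an unadjusted p under 0.05. All 6 lay in mus-only blocks. Of the 380 tested members at 10 to 90% mus, 1 passed, Kars at 81.6%. Without KO day 0 replicate 1 the count of 6 was 37, without KO day 10 replicate 1, 2 or 3 it was 2, 3 and 0, and without WT day 0 replicate 1, 2 or 3 the WT count was 5, 3 and 1. Shares over all genes are not set beside these counts without single libraries, so they are not read as particular to the members.

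Those 6 genes were Cntnap2, Cdh11, Hnrnpf, Cul1, Kars and Fbln2. Cntnap2, a neurexin family gene, had 89.3, 65.5 and 61.9% mus in KO at day 10, on 28, 29 and 42 reads, and 98.4, 96.6 and 97.0% in KO at day 0 (log2 odds -3.87, edgeR adjusted p = 1.1e-04). WT had 90.5, 78.4 and 99.0% at day 10, and 93.1, 94.1 and 94.8% at day 0. KO day 10 replicates 2 and 3 were the lowest of the 12, KO day 10 replicate 1 lay within the WT day 10 range, and WT day 10 replicate 3, which holds background reads, was the highest. Against WT at day 10 the KO log2 odds were -2.92 (edgeR adjusted p = 0.0029), and without WT day 10 replicate 1 or 3 or KO day 10 replicate 3 the count of called members there was 0. Kars, a lysyl-tRNA synthetase gene, had 39.6, 79.0 and 64.1% in KO at day 10, against 90.2, 84.8 and 85.5% in KO at day 0 (edgeR adjusted p = 0.037). Cdh11, a mesenchymal cadherin gene, had 100, 100 and 98.8% in KO at day 10, against 95.7, 85.1 and 78.6% in KO at day 0 (edgeR adjusted p = 0.012), and the groups of both genes did not overlap.

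The density of reads was examined next, as a measure that the choice of chromosomes did not use. KO day 0 replicate 1 and WT day 10 replicate 3 carry background reads over gene bodies, so that genes with few reads elsewhere could be read there. Genes of at least 5 kb with 1 copy and at most 1 scaled read per kb in the mean of the 10 other libraries were taken (355 on chromosome 6 and 232 on chromosome 8, of 5876), a choice made after seeing the data. The excess was the library's scaled reads per kb minus the mean of the other 2 libraries of its group. In KO day 0 replicate 1 the excess was 1.98 scaled reads per kb on both chromosomes, against a median of 1.42 on the other 17 autosomes. In WT day 10 replicate 3 it was 2.55 on both, against 1.80.

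As ratios to that median, chromosome 6 stood at 1.40 and chromosome 8 at 1.40 in the KO library, and at 1.41 and 1.42 in the WT library. The other 17 autosomes had 0.934 to 1.05 (SD 0.0429) in the KO library and 0.901 to 1.11 (SD 0.0595) in the WT library, and chromosome X had 0.897 and 0.984. Chromosomes 6 and 8 took ranks 1 and 2 of the 19 autosomes in both libraries. For 3 copies against 2 the ratio would be 1.5. Each line is represented by 1 library of 1 day, so there is no replicate check within a line.

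**Figure D4:**
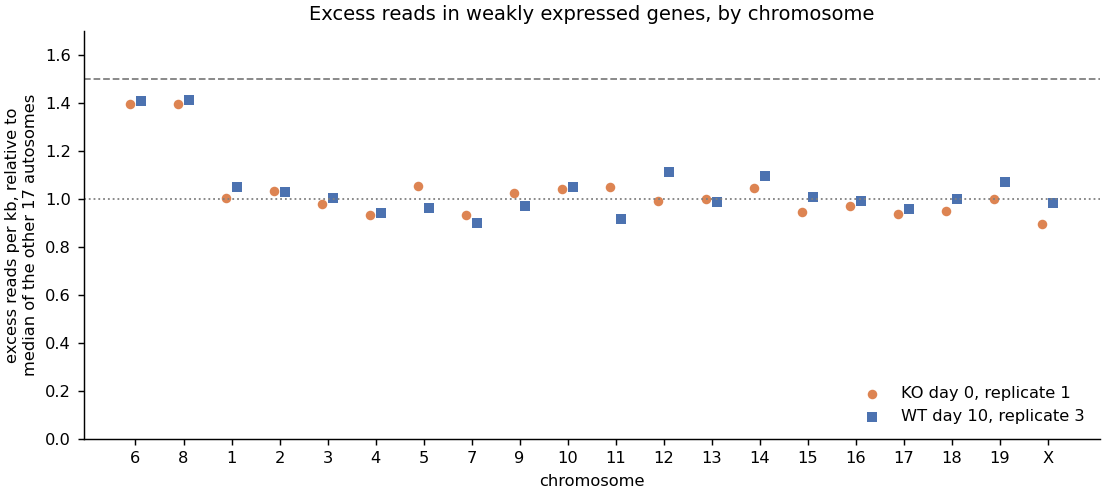
Excess reads per kb in weakly expressed genes, relative to the median of the other 17 autosomes, by chromosome, with chromosomes 6 and 8 at the left; circles are KO day 0 replicate 1 and squares WT day 10 replicate 3, the dotted line marks 1 and the dashed line 1.5. Chromosomes 6 and 8 lie at 1.40 to 1.42 in both libraries, and all other chromosomes at 0.897 to 1.11.

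The excess ran along most of both chromosomes. Of the 10 Mb bins with at least 5 such genes, 15 of 15 on chromosome 6 and 12 of 13 on chromosome 8 were above 1 in the KO library, with medians of 1.38 and 1.38. In the WT library it was 14 of 15 and 13 of 13, with medians of 1.42 and 1.45. The 222 bins of the other autosomes had medians of 0.982 and 0.994, and 5 and 3 of them were above 1.3.

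Blocks with both alleles and mus-only blocks were both raised. The proximal block of chromosome 6 had 1.52 in the KO and 1.65 in the WT library, the mus-only block 1.38 and 1.36, and the distal block 1.24 and 1.305. On chromosome 8 the block with both alleles had 1.45 and 1.49, and the mus-only block 1.26 and 1.21. The tip of chromosome 6 held 1 such gene and is not read.

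The alleles of these weakly expressed genes were also uneven in both proximal blocks. In the proximal block of chromosome 6, 33.4% of allelic reads were mus in the KO library (95% Wilson interval 31.6 to 35.4%, 47 genes) and 35.3% in the WT library (33.7 to 37.0%). In the chromosome 8 block the values were 36.5% (35.4 to 37.7%, 132 genes) and 35.0% (33.98 to 36.0%). On chromosome 13, one of the 6 autosomes with both alleles, they were 51.4% (50.1 to 52.7%) and 51.2% (49.98 to 52.4%). In the distal block of chromosome 6, 14 such genes had 37.3% and 40.8%, and 50.7% over the 10 other libraries. The intervals cover counting error only. Of the 47 and 132 genes, 27 and 80 are below 120 reads and are no members, and the rest are members, so these shares are not fully independent of the choice.

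A narrower set of silent genes gave no clear order. Genes with at most 0.1 scaled reads per kb in the 10 other libraries (150 on chromosome 6, 68 on chromosome 8) had read densities of 1.29 and 1.59 times those of the other autosomes in the KO library, and 1.51 and 1.52 in the WT library. Single other autosomes ranged from 0.602 to 1.77 in the KO and 0.553 to 1.85 in the WT library, so both chromosomes lay inside that range, on 60 to 279 reads.

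In expressed genes, where the mix of genes weighs most, the chromosomes differed from each other. The median level of the 1048 expressed chromosome 8 genes, in scaled reads per kb, was the highest of the 19 autosomes in all 12 libraries, by 0.80 to 1.14 on the log2 scale over the median of the others. Chromosome 6 (1095 genes) took ranks 9 to 18. Its highest ranks, 9 and 11, came from the libraries with background reads. Read shares were taken over autosomal gene reads, with Rn45s and other ribosomal repeat genes left out. The share on chromosome 6 was 7.78, 7.52 and 7.69% in KO and 8.13, 7.89 and 8.06% in WT at day 10 (difference -0.36 points, exact permutation p = 0.1, the smallest possible, adjusted p = 0.4 over 4 tests). Those groups did not overlap. On chromosome 8 the shares were 6.90, 7.06 and 7.17% in KO and 7.06, 7.00 and 6.85% in WT at day 10 (exact permutation p = 0.5). At day 0 KO and WT overlapped on both chromosomes (exact permutation p = 0.9 and 0.5).

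H3K9ac peaks were also denser. Peak lists come from the authors, with 1 sample a group, so there is no replicate check and no test. Chromosome 6 had 25.4 peaks per Mb in KO and 20.7 in WT at day 10, and 22.1 in KO and 31.8 in WT at day 0. Chromosome 8 had 27.7 and 22.3 at day 10, and 22.3 and 34.1 at day 0. The other autosomes together had 19.8 in KO and 14.02 in WT at day 10, and 13.9 in KO and 24.0 in WT at day 0. The ratio to the other autosomes was thus 1.28 and 1.48 at day 10 and 1.58 and 1.32 at day 0 for chromosome 6 (KO and WT). For chromosome 8 it was 1.40 and 1.59, and 1.60 and 1.42. Chromosome 11 was the highest of the others, with 27.4 peaks per Mb in KO and 20.5 in WT at day 10, and 19.3 and 36.0 at day 0. It was above chromosome 6 in KO at day 10, where chromosome 6 ranked 4 of 19, and above both chromosomes in WT at day 0.

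Away from genes the order was plainer. Peaks more than 5 kb from any gene numbered 19.5 per Mb of such sequence on chromosome 6 and 20.2 on chromosome 8 in KO at day 10, and 15.3 and 14.8 in WT. The highest other autosome, chromosome 11, had 16.9 and 10.6. At day 0 they numbered 18.6 and 16.1 in KO and 24.7 and 24.2 in WT, where chromosome 11 had 12.4 and 20.5. Both chromosomes were ranks 1 and 2 of 19 in all 4 lists, at 1.52 to 1.99 (chromosome 6) and 1.57 to 1.83 (chromosome 8) times the other autosomes. Within 5 kb of genes the ratios were 1.13 to 1.32 and 1.34 to 1.57. Most peaks away from genes were weak, with a −log10 q under 0.3. At day 10 these were 1061 of 1500 on chromosome 6 and 1082 of 1504 on chromosome 8 in KO. In WT they were 643 of 1173 and 636 of 1105. At day 0 they were 972 of 1426 and 810 of 1198 in KO, and 1386 of 1898 and 1338 of 1800 in WT. Chromosome 11 had 696 of 917 in KO and 319 of 576 in WT at day 10.

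**Figure D5:**
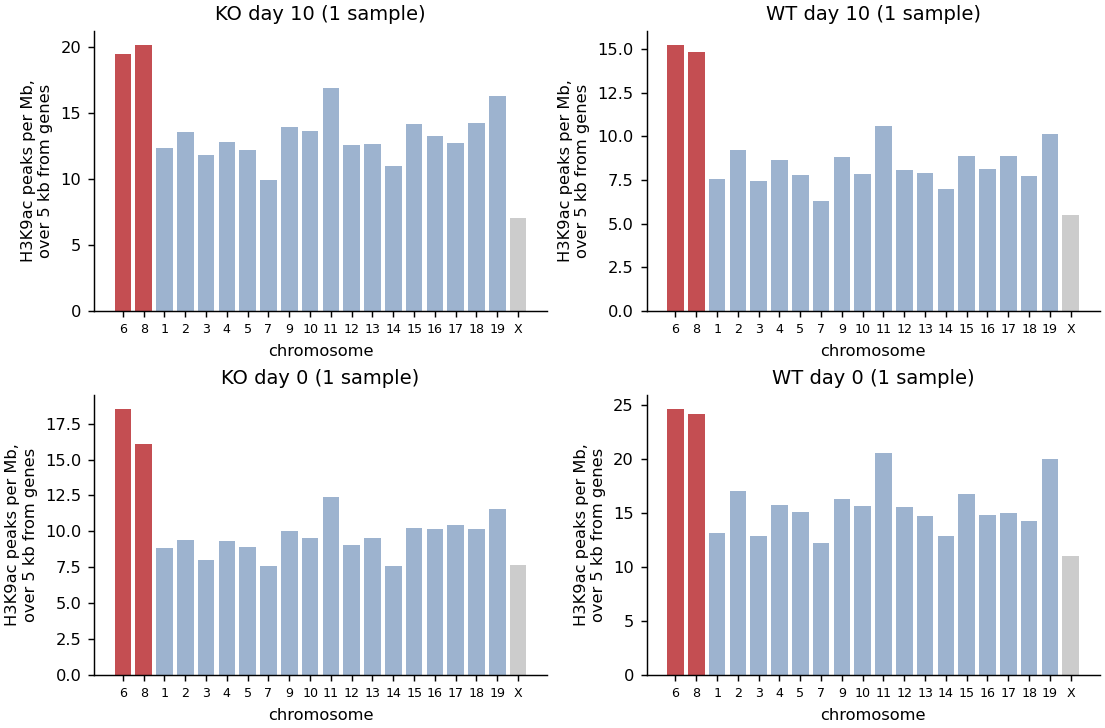
H3K9ac peaks per Mb of sequence more than 5 kb from genes, by chromosome, in the 4 peak lists (KO and WT, day 10 above day 0, 1 sample each); red bars are chromosomes 6 and 8, blue bars the other autosomes and the grey bar chromosome X. Both red bars are higher than every other bar in each panel.

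The higher density away from genes was spread along both chromosomes. For peaks more than 5 kb from genes, in KO and WT at day 10, 15 and 15 of the 15 bins of 10 Mb on chromosome 6 and 13 and 13 of the 14 on chromosome 8 were above the mean of the other autosomes. At day 0 it was 15 and 15, and 14 and 14. Of the 221 bins of the other autosomes, 117 and 106 were above it at day 10, and 103 and 104 at day 0. Over all peaks, 14 and 14 of the 15 bins on chromosome 6 and 13 and 12 of the 14 on chromosome 8 were above it at day 10, and 15 and 14, and 13 and 12, at day 0. Of the 221 other bins, 96 and 85 were then above it at day 10, and 100 and 90 at day 0. Away from genes, the mus-only block of chromosome 8 had ratios of 1.78 (KO) and 2.32 (WT) at day 10 and 1.96 and 1.94 at day 0. The block with both alleles had 1.47 and 1.59, and 1.61 and 1.44.

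Strong peaks and promoters gave other orders. At a −log10 q of at least 5, chromosome 6 had 1.32 (KO) and 1.22 (WT) times the density of the other autosomes at day 10, and chromosome 8 had 1.79 and 1.78, while chromosome 11 was above both. A peak within 1 kb of the start was found for 75.3% of chromosome 6 members in KO and 76.1% in WT at day 10, against 79.3 and 78.1% of the genes of other autosomes at the same read depth. For chromosome 8 it was 80.7 and 80.9%. At day 0 the shares were 62.6 and 71.7% on chromosome 6, 65.7 and 78.8% on chromosome 8, and 62.9 and 72.6% on the other autosomes. The range of single autosomes at day 10 was 72.6 to 84.7% in KO and 68.7 to 84.4% in WT.

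Examples show the range of the authors' fold enrichment at promoters. Mcm5 had 8.81 in KO and 7.22 in WT at day 10, and 6.24 and 4.66 at day 0. Ezh2, the Polycomb methyltransferase gene in the mus-only block of chromosome 6, had 5.79 and 5.29, and 4.38 and 3.88. Zfp42 had 2.90 and 3.73 at day 10, and 3.99 and 2.96 at day 0, and Nanog 2.83 and 2.95, and 2.95 and 3.28. Peg10 had 4.56 and 4.25 at day 10, 3.42 in WT at day 0, and no listed peak in KO at day 0.

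Expression of the members was compared in limma over 20624 genes, on log2(scaled reads + 1), with all 1426 members passing the filter on low values. Between KO and WT 0 members passed at day 10, beside 0.0% of all genes, and 0 at day 0, beside 0.0%. At an unadjusted p under 0.05 in limma there were 190 members at day 10 (13.3%, beside 11.9% of all genes) and 47 at day 0 (3.30%, beside 3.82%). edgeR called 0 members at either day, beside 0.0% of genes. DESeq2 called 65 of 1403 members at day 10 (4.63%, beside 2.47% of all genes) and 2 at day 0 (0.143%, beside 0.0664%). Of the early embryo genes, Klf2, a naive state factor, was at 1357, 934 and 766 scaled reads in KO and at 556, 344 and 80.5 in WT at day 10 (log2 1.99, limma adjusted p = 0.210). The groups of Klf2 did not overlap, but the difference did not pass.

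Between day 10 and day 0, 182 members passed in KO, which is 12.8%, beside 8.89% of all genes and 9.96% of genes on other autosomes at the same read depth. Of the 182, 49 were higher at day 10, beside 2.43% of all genes, and 133 were lower, beside 6.46%. In WT 97 passed, which is 6.80%, beside 4.42% and 5.89%. Of the 97, 53 were higher at day 10, beside 2.02% of all genes, and 44 were lower, beside 2.40%. Both comparisons have their own day 0 libraries, and the interaction of line and day passed for 0 members (122 at an unadjusted p under 0.05). The median log2 change of the members was -0.40 in KO and -0.21 in WT, beside -0.68 and -0.20 over all genes. With RLE scaling, which moved the medians of all genes to -0.41 and -0.01, the splits were 79 higher and 73 lower in KO and 69 higher and 33 lower in WT.

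The other tools gave other counts. edgeR called 106 members in KO (7.47%, beside 7.03% of all genes) and 107 in WT (7.54%, beside 7.03%). DESeq2 called 331 in KO (23.6%, beside 14.8%) and 179 in WT (12.8%, beside 8.07%).

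These counts depended on single libraries. In KO, 54, 44 and 24 passed without day 10 replicates 1, 2 and 3, and 290, 45 and 41 without day 0 replicates 1, 2 and 3. In WT, 52 passed without day 10 replicate 2 and 57 without day 0 replicate 3. Without the libraries with background reads the counts were 465 in KO and 192 in WT. Shares over all genes are not set beside the counts up to here, so they are not read as particular to the members. The 3 deep libraries low in Rn45s are all of day 0, so the kind of library moves with the day, and a setting chosen after seeing the data left them out. It called 21 members in KO (17 higher, 4 lower), beside 0.656% of all genes, and 71 in WT (49 higher, 22 lower), beside 2.85%. KO day 0 then has 1 library, replicate 1, which holds background reads and is assumed to vary like the other groups.

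Some genes of the pluripotent state fell. Of 8 early embryo genes 3 fell with differentiation in KO and 4 in WT, and 0 rose in limma. Without the 3 libraries low in Rn45s, 0 of the 8 passed in KO and the same 4 fell in WT. Zfp42 had 2094, 2040 and 1427 scaled reads in KO at day 10 against 7463, 5336 and 5660 at day 0 (log2 -1.74, limma adjusted p = 0.031). In WT it had 760, 927 and 494 against 11523, 2630 and 6568 (log2 -3.05, limma adjusted p = 0.0012). Its mus share, 32.5 to 48.2% over the libraries, stayed on one side of 50% while its level changed. Nanog fell in both lines (log2 -1.62 in KO and -2.31 in WT), as did Triml2 (log2 -1.98 and -2.64). Gdf3, a TGF-beta family gene of the inner cell mass, fell in WT (log2 -2.12), and its change in KO was -1.57 (limma adjusted p = 0.061).

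Of the 13 imprinted genes, 3 rose and 2 fell in KO, and 3 rose in WT. Without the 3 libraries low in Rn45s, Peg10 and Mest rose in KO and 0 fell, and the same 3 rose in WT. Peg10 had 50212, 53017 and 58988 scaled reads in KO at day 10 against 4732, 11663 and 11464 at day 0 (log2 2.65, limma adjusted p = 0.0022). In WT it had 65918, 48137 and 41605 against 4209, 9570 and 9869 (log2 2.79, limma adjusted p = 0.0011). Its groups were far apart in both lines, and its mus share was 27.3 to 31.7% in KO at day 10 against 18.9 to 26.2% at day 0. Peg10 was not among the 6 members that passed the allele test between days in KO, and its WT shares by day are not given here. Sgce rose by 1.60 in KO and 2.52 in WT, and Mest, a hydrolase family gene, by 2.50 and 2.29. Pon3 and Copg2 fell in KO (log2 -3.68 and -1.34). Mest and Copg2 overlap on opposite strands, so reads in their overlap cannot be told apart either.

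Of 32 developmental genes tested, 6 rose in KO and 3 in WT, and 0 fell. Gata2, a blood and trophoblast factor, rose by 2.74 in KO and 2.05 in WT, and Col4a2, a basement membrane collagen, by 1.54 and 1.63. Col4a1 and Junb, an AP-1 factor, rose by 1.35 and 2.24 in KO. Acta1 and Hoxa11, below 120 allelic reads, also rose in KO, and Acta1, a muscle actin gene, in WT (log2 8.26 in KO and 7.11 in WT). Ccnd2, a G1 cyclin, rose by 3.13 in KO and 2.60 in WT as the only one of 16 cell cycle genes to pass. Of 20 chromatin genes Tet3 rose by 1.07 and Smarcad1 fell (log2 -1.39) in KO, and 0 passed in WT. Of 12 metabolic genes 0 passed in limma (all with adjusted p above the threshold of 0.05). Fibroblast genes, summed in CPM, were also higher at day 10 in KO (658 to 1959, against 144 to 573 at day 0), and their part in these rises was not tested. Without the 3 libraries low in Rn45s, Acta1 and Gata2 were the developmental genes that rose in KO, and 0 of the cell cycle and chromatin genes passed there. The same setting left 4 developmental genes and Ccnd2 in WT. The list counts are a description.

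By size of change among members, which have 120 or more allelic reads, Zfp703, a transcriptional cofactor gene on chromosome 8, is given first for the rises in KO. It had 738, 726 and 893 scaled reads in KO at day 10 against 24.9, 8.14 and 4.53 at day 0 (log2 6.16, limma adjusted p = 1.5e-04). In WT it had 491, 389 and 354 against 38.9, 12.5 and 6.83 (log2 4.66). The days were far apart for Zfp703 in both lines. Evx1, a homeobox gene of the posterior embryo, and Cxcl12, a chemokine gene, rose in both lines, but Cxcl12 did not pass in KO without the 3 libraries low in Rn45s (limma adjusted p = 0.056). Flnc, a filamin gene, rose by 4.203 in KO, and Irs2, an insulin receptor substrate gene, by 3.64 in WT.

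In KO the largest falls among members were those of Lmo3, Glra3, Fam19a1, Slc13a1 and Col28a1 (log2 -7.31 to -5.69). Lmo3 had 0, 0 and 0 scaled reads in KO at day 10 against 542, 84.3 and 84.5 at day 0, and 37.1, 10.3 and 601 in WT at day 10. Each of these 5 genes had its highest value in WT day 10 replicate 3 and its highest KO value in KO day 0 replicate 1, the libraries with background reads. Lmo3 and Glra3 kept their call without those libraries, and in 6 of 6 fits that left out a single library. The part of background reads in the size of the falls was not tested. The fall of Slc13a1 did not pass in 9 of 16 other settings, that of Col28a1 in 7 of 17 and that of Fam19a1 in 5 of 17, each time including the setting without the 3 libraries low in Rn45s. Among the members that fell most in WT were Halr1 (log2 -4.59), a noncoding RNA near the Hoxa genes, Hsh2d (-4.17), Stra8 (-3.53), a germ cell gene, and B3gnt3 (-3.46). Hsh2d and B3gnt3 did not pass without the 3 libraries low in Rn45s (limma adjusted p = 0.080 for both). The fall of Stra8 did not pass in 11 of 17 other settings (highest limma adjusted p = 0.145, without WT day 0 replicate 2), among them the replicate block (limma adjusted p = 0.055).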

How the data were processed

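RNA was measured in 12 libraries and H3K9ac in 4 samples. Other ChIP samples of the series, H3K9me2 and input among them, were not analysed here. Per the submitters' processing notes, TopHat and HOMER were used for RNA and Novoalign and MACS2 for ChIP, on mm9, with versions not given in the sources used here. The gene table holds scaled reads, a signal that the authors brought to the same total in every library. In that deposited signal, 100% of values of 1 to 100 reads were whole multiples of 1 read (within 0.006 scaled reads), so whole reads were recovered for count tests. The allele table holds mus and cas read counts as deposited by the authors. The peak lists hold the fold ratio over background and −log10 p and q per peak, as the authors' caller wrote them.

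Chromosomes were divided into blocks at least 5 genes long by least absolute deviations of the mus share (penalty 60). Libraries were compared by exact 2-sided permutation tests. Expression was tested in limma 3.58.1 on log2(value + 1), with genes above 1 in at least 3 libraries, all groups in 1 fit and Benjamini-Hochberg adjustment at 0.05. Alleles were tested in edgeR 4.0.16, and edgeR and DESeq2 1.42.0 on recovered reads were alternatives. Python 3.11.15 and R 4.3.3 were used, and the code was tested on simulated data. Named genes are the 8 per chromosome with the most allelic reads among members at 10 to 90% mus, those with the highest and lowest mus shares, those next to a step or to the read threshold, and the 5 largest called changes in each direction, plus the lists. The members and lists were chosen with earlier results of these data known. No other per-sample column was left unused. Same-numbered libraries did not deviate together in every pair of any comparison. Some genes that these rules name are not reported here.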

Additional observations from a re-analysis of the deposited data

How the results depend on the processing

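Over the main results, 151 values under other settings stayed the same, 74 moved and 16 reversed. Fits that leave out a single library are not in these counts and are given apart. For differences of shares, the same means the same sign only. For counts of called members it means a count of similar size. For ratios and for the share over all libraries it means a value inside the interval or SD of the main one. For single named genes, 195 calls were kept and 24 lost, again without the fits that leave out a single library. The cause was not tested for any of them except where fewer libraries or genes entered.

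The median mus share over all libraries (40.0% on chromosome 6, 35.4% on chromosome 8) was 44.5 and 37.0% with pooled reads and 98.9 and 50% over all members, and on chromosome 6 it was 37.7% in a window of 20 to 80% and 35.2% inside the blocks with both alleles. Reversed differences were, for KO minus WT on chromosome 6, 0.177 at day 0 over all members and -0.575 at day 10 inside the blocks. For day 10 minus day 0 on chromosome 6 they were -2.71 in KO with pooled reads, and in WT 0.0465 and 0.285 with at least 60 and 240 reads, 0.733 in the window, 0.619 over all members, 0.614 inside the blocks and 0.0523 without the libraries with background reads. On chromosome 8, KO minus WT was 0.0735 in the window and 0.0307 inside the blocks at day 0, and 0.139 with pooled reads and 4.82 over all members at day 10, and KO day 10 minus day 0 was 5.41 over all members. Leaving out single libraries gave, for KO minus WT, 1.17 to 2.98 at day 10 and -2.20 to -0.763 at day 0 on chromosome 6, and -1.26 to 0.161 and -0.629 to 0.693 on chromosome 8. For day 10 minus day 0 it gave 2.41 to 4.21 in KO and -0.963 to 0.632 in WT on chromosome 6, and -2.67 to -1.26 and -2.05 to -0.725 on chromosome 8.

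The read share of KO minus WT at day 0 was -0.104 without the background libraries on chromosome 6, and 0.0154 as a median log2 difference on chromosome 8. Without single libraries it was -0.434 to -0.292 at day 10 and -0.104 to 0.203 at day 0 on chromosome 6, and 0.0113 to 0.143 and -0.254 to -0.0422 on chromosome 8.

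Peak density ratios to the other autosomes are given in the order KO and WT at day 10, then KO and WT at day 0. At −log10 q of at least 5 they were 1.22 (WT day 10), 1.22 and 1.14 on chromosome 6 and 1.79, 1.78, 1.27 and 1.13 on chromosome 8. By covered bases they were 1.16, 1.29, 1.43 and 1.26 on chromosome 6, and 1.48 (WT day 10) and 1.51 (KO day 0) on chromosome 8. Per expressed gene they were 1.46, 1.66, 1.68 and 1.46 on chromosome 6, and 1.28, 1.48 and 1.35 (WT day 0) on chromosome 8. Over 5 kb from genes they were 1.52, 1.88, 1.99 and 1.64 on chromosome 6 and 1.57, 1.83, 1.73 and 1.60 on chromosome 8. Within 5 kb they were 1.13, 1.27, 1.32 and 1.14 on chromosome 6, and 1.34 on chromosome 8 in KO at day 10.

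The excess read ratio of KO day 0 replicate 1 and WT day 10 replicate 3 was 1.503 and 1.53 on chromosome 6 as a median over genes. With nothing subtracted it was 1.32 and 1.34 on chromosome 6, and 1.34 and 1.35 on chromosome 8. The silent gene ratio was 1.52 and 1.81 on chromosome 6 and 2.07 (KO library) on chromosome 8 with at most 1 read in each other library. On chromosome 6 it was 1.99 and 1.99 without multigene families, and 1.09 and 1.25 against the median of the other autosomes.

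For expression, DESeq2 called 65 members at day 10 and 2 at day 0 between KO and WT, beside 558 and 15 of 22589 genes, and 331 in KO and 179 in WT between days, beside 3350 and 1823. Between KO and WT at day 10, 6 were called with a pseudocount of 0.1 and 6 with depth as a term. Between days, KO had 106 in edgeR, 114 with a pseudocount of 5, 85 with no filter, 309 with only the groups compared, 465 without the background libraries and 21 without the 3 libraries low in Rn45s. WT had 150 with depth as a term, 47 with only the groups compared and 192 without the background libraries. Leaving out single libraries gave 24 to 290 in KO, 52 to 96 in WT, and 0 between KO and WT. Except for DESeq2, shares over all genes are not set beside these counts, so they are not read as particular to the members. For alleles, KO minus WT at day 10 had 0 calls with at least 5 reads, 0 in a fit of 12 libraries and 0 without the background libraries, and 0 to 1 without single libraries. KO between days had 13, 0 and 37 in those settings and 0 to 37 without single libraries, and WT had 0 to 5 without single libraries and 1 without the 3 libraries low in Rn45s.

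The replicate numbers did not show pairing (correlations of same-numbered deviations of -0.400 to 0.579, not over 0.1 for every pair of any comparison). With the replicate block 167 members were called in KO and 89 in WT between days, and 0 between KO and WT at either day. For alleles it called 9 in KO and 0 in WT between days, and 1 at day 10 and 0 at day 0 between KO and WT. With 3 pairs the exact test of mus and read shares cannot give less than 0.25. Depth limits the libraries with 2081129 to 4220140 reads most, and a single H3K9ac sample a group allows no replicate check.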

Other observations

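The H3K9ac lists of KO and WT cells shared a minority of their peaks on chromosomes 6 and 8. At day 10, 21.8% of the KO peaks of chromosome 6 overlapped a WT peak and 26.6% of the WT peaks a KO peak, and on chromosome 8 the shares were 24.8 and 30.7%, against 27.8 and 39.2% on the other autosomes. At day 0 they were 24.1 and 16.7% on chromosome 6 and 27.6 and 17.9% on chromosome 8, against 34.8 and 20.1% on the other autosomes. A minority was thus shared there too. The lists reach down to a −log10 p of 2.00 to 2.01, and 1 sample a group gives no measure of how far replicates would overlap.

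Within the distal block of chromosome 6 a run of genes lay below the rest. Lrmp had 15.9% mus, Gm15706 19.6%, Tuba3b 24.1%, Rassf8, a Ras association domain gene, 19.5%, Bhlhe41, a clock repressor, 24.7%, and Sspn, a dystrophin complex gene, 22.0%.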
